A study of Mus musculus with 2 samples.

Results

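The PRDM genes encode zinc finger proteins that carry a PR domain, and 9 of them were followed here in type 5 retinal bipolar cells of the mouse. They were Prdm1, Prdm2, Prdm4, Prdm8, Prdm10, Prdm12, Prdm13, Prdm15 and Prdm16, taken by gene symbol from a table of 32813 symbols, and all 9 were found in it. The series holds 1 group of 2 RNA libraries, replicate 1 and replicate 2, described as biological replicates. Retinas of Htr3a-GFP mice were dissociated and fluorescent cells were collected. In this line a green fluorescent protein reports use of the promoter of Htr3a, a serotonin receptor subunit gene. Any other cell that used this promoter could have entered the sort. No source used here gives the age or sex of the mice, or says whether animals were pooled. There was no second group, so each value is a level in the sorted cells and not a change or an enrichment.

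The PR domain is related to the SET domain of histone methyltransferases. Some PRDM proteins methylate histones themselves, and others act by recruiting histone-modifying enzymes to the sites that their zinc fingers bind. In the developing mouse retina, Prdm1 (also called Blimp1) is switched on downstream of Otx2 and holds cells in the photoreceptor fate by keeping the bipolar fate off. Prdm8 is needed for the survival of rod bipolar cells and of type 2 OFF cone bipolar cells in the mouse, and Prdm13 promotes amacrine cell subtypes.

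Values are in TPM, a transcript abundance unit in which each library has the same total. These are scaled for transcript length, so levels of different genes are set side by side here. This scaling does not remove other differences between genes, such as in RNA amplification, which limits ratios and orders between genes. TPM keeps no read depth, and the depth of the libraries is unknown, so no counting interval is given. A listed 0 needs care, because replicate 1 lists 0 for Rps27, a gene of the ribosome, where replicate 2 lists 838 TPM. Mitochondrial genome symbols made up 17.3% of all TPM of replicate 1 and 24.6% for replicate 2. In a sorted population, fewer cells that use a gene and less RNA per cell cannot be told apart.

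Genes of a bipolar marker list, called pan-bipolar here, were abundant. Not all of them mark every bipolar type, as Grm6, Trpm1 and Isl1 are genes of ON bipolar cells. Of 7 pan-bipolar genes, 7 were above 1 TPM in limma's one-sided test on log2(TPM + 1), with Benjamini-Hochberg adjustment over all genes tested, of which 55.5% passed this line. The 7 pan-bipolar genes summed to 6746 TPM in replicate 1 and 6192 TPM in replicate 2. The lowest of them by mean, Isl1, still stood above 99.2% of the tested genes in replicate 1 and 98.7% in replicate 2. Of 7 type 5 genes 5 were above 1 TPM, a share not far from that of all genes tested. Among them was Htr3a at 90.9 and 88.8 TPM in replicates 1 and 2, and as its promoter drove the sort it is no check of the label. The list was led by the potassium channel gene Kcng4 at 277 ± 68.7 TPM, the transcription factor gene Sox6 at 126 ± 15.2 TPM and the cadherin gene Cdh9 at 125 ± 11.8 TPM (SD, n = 2). The lowest type 5 genes were Chrm2 at 0.08 and 1.15 TPM and Slitrk5 at 0.55 and 2.15 TPM.

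The upstream sequences of the members that set retinal cell fate are shown because Otx2 and Neurod4, whose protein families bind short known motifs, were among the abundant transcription factor genes of these cells. Otx2 stood at 859 ± 22.6 TPM and Neurod4 at 1178 ± 129.5 TPM (SD, n = 2). Capitals mark the homeodomain core TAATCC, read on both strands, and the E-box CANNTG, the motif of basic helix-loop-helix factors, which reads the same on both strands. Each sequence is the 250 bases before the start of the gene in RefSeq on GRCm38.p6. The windows lie at chr10:44458749-44458998 on the minus strand for Prdm1, at chr5:98180619-98180868 on the plus strand for Prdm8 and at chr4:21685964-21686213 on the minus strand for Prdm13.
Prdm1: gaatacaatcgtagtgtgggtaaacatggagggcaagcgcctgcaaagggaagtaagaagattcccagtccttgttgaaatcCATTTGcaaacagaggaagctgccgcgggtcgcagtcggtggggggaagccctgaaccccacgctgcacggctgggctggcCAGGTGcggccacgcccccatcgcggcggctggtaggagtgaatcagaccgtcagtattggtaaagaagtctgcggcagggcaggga
Prdm8: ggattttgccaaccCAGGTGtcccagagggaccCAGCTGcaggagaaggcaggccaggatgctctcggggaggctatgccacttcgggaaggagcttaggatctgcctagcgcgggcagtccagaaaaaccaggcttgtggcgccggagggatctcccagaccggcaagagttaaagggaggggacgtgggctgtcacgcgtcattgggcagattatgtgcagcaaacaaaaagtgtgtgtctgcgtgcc
Prdm13: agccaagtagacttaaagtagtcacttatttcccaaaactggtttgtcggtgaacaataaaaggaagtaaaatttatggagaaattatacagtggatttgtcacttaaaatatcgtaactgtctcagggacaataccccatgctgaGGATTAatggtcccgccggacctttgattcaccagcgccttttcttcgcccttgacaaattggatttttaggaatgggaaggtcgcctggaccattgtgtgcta

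Prdm1 and Prdm8 each held 2 E-boxes and no TAATCC in this window. Prdm13 held 1 TAATCC on the minus strand of the printed sequence, beginning 104 bases before the start, and no E-box. Of 32841 windows of the same length, 6.25% held TAATCC and 66.2% held an E-box. A match is a description of letters, not of binding. The window of Prdm8 was the 1 among those printed whose following 20 bases were not found in a GENCODE M21 transcript of its gene, so its start differs between the annotations. The windows of Prdm1 and Prdm8 lie inside the longer GENCODE genes, which extend upstream of them to position 44528501 for Prdm1 and 98167198 for Prdm8. That of Prdm13 adjoins the GENCODE gene. Of the 9 members, 8 had a window in the table, with 11 windows in all. Prdm2 was the member without one. CpG dinucleotides numbered 15 in the window of Prdm1, 11 in that of Prdm8 and 7 in that of Prdm13, with a median of 6 over all windows. For Prdm4 the windows held 34 and 24, and for Prdm15 they held 30 and 15. The windows of Prdm10 held 8 and 1, that of Prdm12 held 10 and that of Prdm16 held 22.

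The members fell into those read at several TPM or more in both libraries and those at or near 0. Prdm2, Prdm4, Prdm10 and Prdm15 were above 1 TPM, 4 of the 9 members, against 55.5% of the 19968 genes tested (one-sided limma test, adjusted p under 0.05). The test took genes above 0 in either library, which 7 of the 9 members were. Prdm2 was also above 10 TPM, the 1 member so called, where 32.4% of all genes tested were. With no test, 5 members reached 1 TPM in each library, the fifth being Prdm8, as did 67.6% of all genes tested. Prdm2, Prdm4 and Prdm10 reached 10 TPM in each library, 3 members, as did 41.3% of all genes tested. The median of the 9 members on the log2(TPM + 1) scale was 2.31, with 3.22 over all genes tested. This median counts the members listed at 0 in both libraries, whereas the tested genes hold none of that kind. The fit set each gene's variance from genes of like abundance, so calls did not draw on how far the libraries disagreed for that gene.

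**Figure D1:**
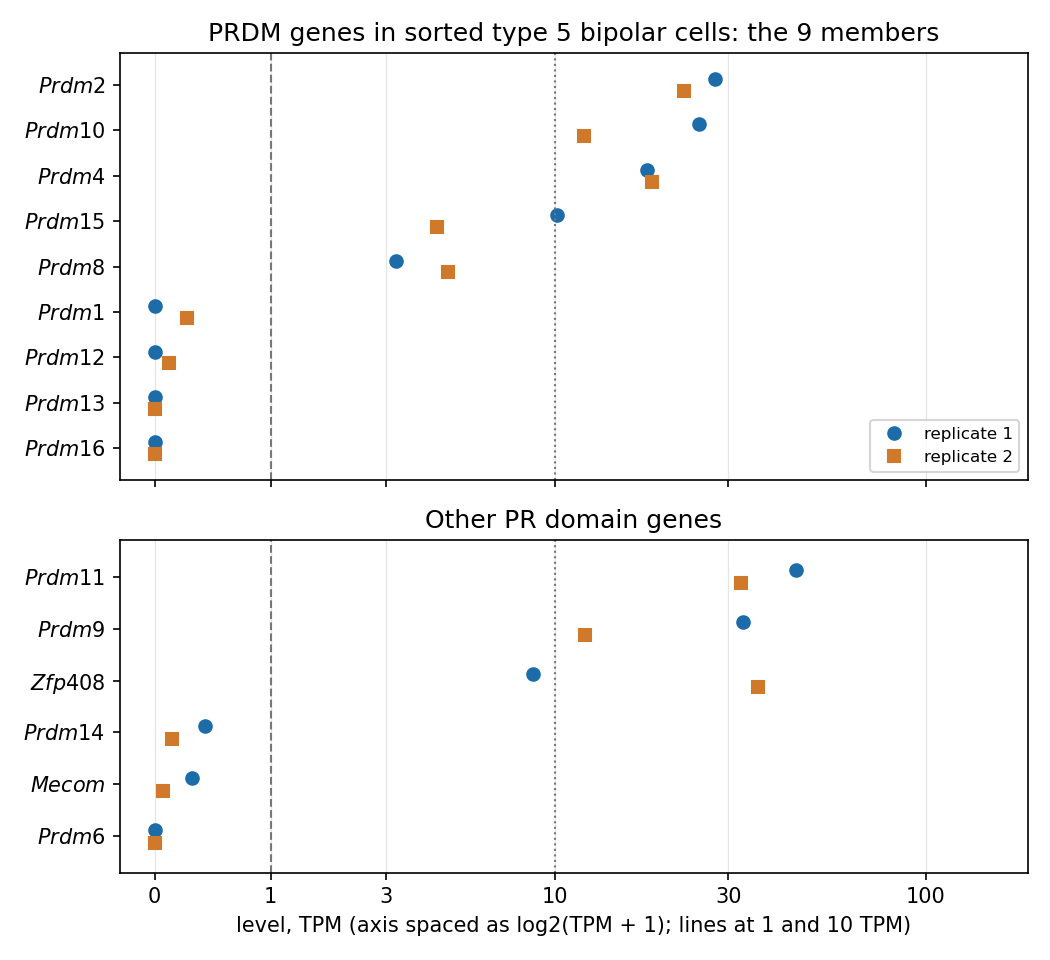
Levels of the 9 members (upper panel) and of 6 other PR domain genes (lower panel) in TPM, on an axis spaced as log2(TPM + 1). Circles are replicate 1, squares replicate 2, and the lines stand at 1 and 10 TPM. Prdm2, Prdm10 and Prdm4 lie above 10 TPM in both libraries, and Prdm1, Prdm12, Prdm13 and Prdm16 at or near 0.

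Prdm8, the member with a known role in bipolar cells, had 3.23 TPM in replicate 1 and 4.80 TPM in replicate 2, a mean of 4.02 ± 1.11 TPM (SD, n = 2). It was low in both libraries but not at 0, and its values differed by 1.49-fold. It ranked 12699 among all symbols by mean TPM, and 33.6% of the tested genes lay below it in replicate 1 and 42.0% in replicate 2. It did not pass the test against 1 TPM (limma, Benjamini-Hochberg adjusted p = 0.148), and its adjusted p lay between 0.0203 and 0.148 over 6 settings of that limma test. The setting without a variance trend was the 1 that called it. Missing this line does not place the gene under 1 TPM. Prdm8 lies at chr5:98167198-98188991 on the plus strand, with 4 exons and a coding length of 2064 bases in its longest coding transcript (GENCODE M21, whose assembly GRCm38 is that of mm10).

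Prdm8 acts with the basic helix-loop-helix protein Bhlhe22 in neurons of the mouse cortex, where the pair represses the cadherin gene Cdh11. In the sorted cells Bhlhe22, which is also a gene of type 2 OFF bipolar cells, had 1.25 TPM in replicate 1 and 8.15 TPM in replicate 2, and it did not pass the test against 1 TPM (limma, adjusted p = 0.180). Cdh11 had 296 TPM in replicate 1 and 297 TPM in replicate 2 and was above the line. Its level was 91.5 times that of Prdm8 in replicate 1 and 61.8 times in replicate 2. Prdm8 and Bhlhe22 were both read at a few TPM, beside an abundant Cdh11, and a link between these levels was not tested.

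Most markers of the bipolar classes that need Prdm8 were also at a few TPM or less. Of the rod bipolar genes, the protein kinase gene Prkca had 4.10 and 7.30 TPM, Vstm2b had 2.16 and 5.95 TPM and Car8 had 3.03 and 4.47 TPM in replicates 1 and 2. Sebox had 0 (as listed) and 4.57 TPM. Rpa1, a replication protein gene used by many cells, was the 1 of 5 rod bipolar genes called above 1 TPM in limma's test. It stood at 40.0 ± 9.50 TPM (SD, n = 2). With no test, 4 of the 5 reached 1 TPM in each library, as did 67.6% of all genes tested. Prkca missed the call (limma, adjusted p = 0.0616) and passed with pseudocount 0.1 (limma, adjusted p = 0.00975). Without a variance trend, Prkca, Car8 and Vstm2b gained it (limma, adjusted p = 0.0090, 0.0247 and 0.0380). The rod bipolar genes summed to 42.6 TPM in replicate 1 and 69.0 TPM in replicate 2. Of 3 type 2 OFF genes, Neto1 had a listed 0 and 11.2 TPM, and Syt2 a listed 0 and 0.54 TPM. These genes summed to 1.25 TPM in replicate 1 and 19.9 TPM in replicate 2. Prdm8 and both marker sums were higher in replicate 2, and the part of such cells in the level of Prdm8 was not tested.

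For Prdm1 replicate 1 lists 0 and replicate 2 lists 0.21 TPM. It was at or near 0 in both libraries, and in replicate 2 14.8% of the tested genes lay below it. Genes around Prdm1 in the retina were abundant. Otx2, which acts upstream of it, is given above and is also a pan-bipolar gene. Crx, the cone-rod homeobox gene, stood at 260.5 ± 17.4 TPM and Rorb, a nuclear receptor gene of photoreceptor development, at 195 ± 0.997 TPM (SD, n = 2). All of these, 3 of the 3 genes linked to Prdm1, were above 1 TPM and above 10 TPM in limma's test. Of all genes tested, 55.5% and 32.4% were. Prdm1 spans chr10:44437177-44528501 on the minus strand, with 8 exons and a coding length of 2568 bases.

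Genes known as photoreceptor markers were read at uneven levels beside a Prdm1 at or near 0, and which cells their transcripts came from was not tested. Of 12 rod genes 9 were above 1 TPM in limma's test, with sums of 1661 TPM in replicate 1 and 1724 TPM in replicate 2. The highest were the transducin subunit gene Gngt1 at 802 ± 230.5 TPM, Rom1 at 327 ± 33.5 TPM and the rod arrestin gene Sag at 248 ± 0.644 TPM (SD, n = 2). The lowest rod genes were the channel gene Cnga1 at 1.87 and 6.52 TPM and the nuclear receptor gene Nr2e3 at 4.60 and 0.91 TPM. Of 10 cone genes 3 were above 1 TPM in limma's test. Gnat2 had 86.0 and 23.3 TPM and Gngt2 83.1 and 12.3 TPM in replicates 1 and 2. Thrb, the last of them, had 15.7 and 10.5 TPM. The opsin gene Opn1mw had 3.30 and 0.39 TPM, the channel gene Cnga3 1.67 and 1.87 TPM, and Pde6c had 0.46 TPM and a listed 0. The cone sum was 209 TPM in replicate 1 and 57.4 TPM in replicate 2. It was thus higher in the library in which Prdm1 was listed at 0, though Cnga3 was not.

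Prdm13 was listed at 0 in both libraries and could not enter the test. Ptf1a, a basic helix-loop-helix gene that acts upstream of Prdm13 in the mouse spinal cord, was also listed at 0 in both. Ebf3, a transcription factor gene of an amacrine subset that depends on Prdm13, had 3.37 TPM in replicate 1 and 0.42 TPM in replicate 2, and it did not pass the test (limma, adjusted p = 0.457). The Prdm13 gene spans chr4:21677480-21685963 on the minus strand, with 4 exons and a coding length of 2262 bases.

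Amacrine markers were uneven between the libraries while Prdm13 was listed at 0 in each. Of 11 amacrine genes, of which 8 were tested, 2 were above 1 TPM. These were Pax6 at 22.3 and 46.5 TPM and the glycine transporter gene Slc6a9 at 36.6 and 3.12 TPM in replicates 1 and 2. Tfap2b, a transcription factor gene of amacrine cells, had 0.33 and 20.4 TPM and did not pass the test. Besides Ptf1a, Calb2 and Chat were listed at 0 in both libraries. The list summed to 60.5 TPM in replicate 1 and 95.3 TPM in replicate 2, and 2 of its genes reached 1 TPM in replicate 1, 7 in replicate 2.

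**Figure D2:**
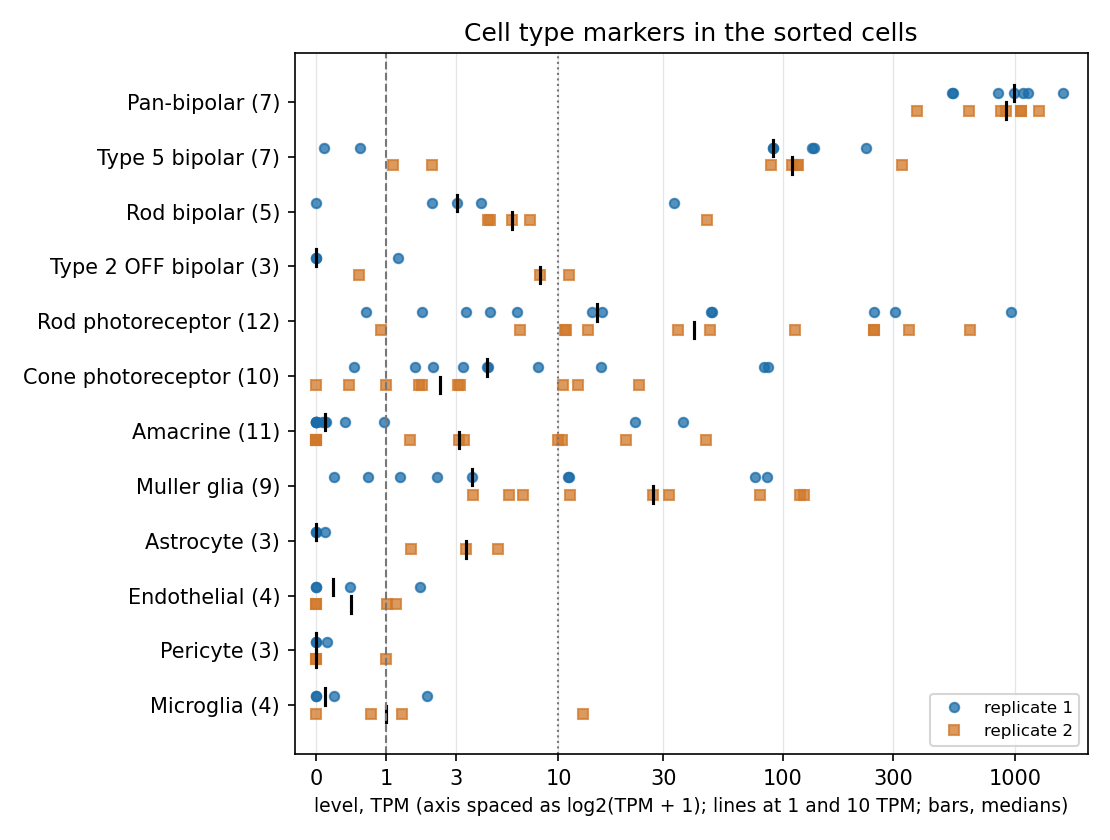
Levels of cell type marker genes in TPM, on an axis spaced as log2(TPM + 1), with the number of genes in brackets. Each circle (replicate 1) or square (replicate 2) is a gene and black bars are medians. Pan-bipolar genes all lie above 100 TPM, rod photoreceptor genes spread over the whole range, and pericyte and endothelial genes lie near or at 0.

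Prdm2 was the most abundant member by mean level. Also known as RIZ, its protein methylates histone H3 and binds the retinoblastoma protein. It had 27.6 TPM in replicate 1 and 22.8 TPM in replicate 2, a mean of 25.2 ± 3.38 TPM (SD, n = 2), and 70.0% and 68.9% of the tested genes lay below it. It passed the 10 TPM line (limma, adjusted p = 0.0104) and did so in 6 of 6 limma settings, with adjusted p up to 0.0466. Its level was 8.54 times that of Prdm8 in replicate 1 and 4.75 times in replicate 2. Rb1, the retinoblastoma gene, was steady at 37.7 ± 1.43 TPM (SD, n = 2) and was also above 10 TPM. Prdm2 spans chr4:143107391-143212995 on the minus strand and has the longest coding sequence of the members, 5127 bases over 10 exons.

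Prdm4, a zinc finger protein that binds the neurotrophin receptor p75, had 18.1 TPM in replicate 1 and 18.6 TPM in replicate 2 and varied least of the 5 members read in both libraries. It was above 1 TPM (limma, adjusted p = 1.58e-09) but not above 10 TPM (limma, adjusted p = 0.182). After rescaling without the mitochondrial genome it passed the 10 TPM line (limma, adjusted p = 0.035). Ngfr, the gene of the p75 receptor, stood at 150 ± 30.3 TPM, and Prmt5, an arginine methyltransferase gene whose product Prdm4 recruits in neural stem cells, at 10.8 ± 0.644 TPM (SD, n = 2). Both were above 1 TPM. Prdm4 spans chr10:85891966-85917142 on the minus strand, with 12 exons and a coding length of 2409 bases.

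Prdm10 had 25.0 TPM in replicate 1 and 12.1 TPM in replicate 2, a 2.07-fold difference. It was above 1 TPM (limma, adjusted p = 8.94e-09) and not above 10 TPM (limma, adjusted p = 0.241), although both values exceeded 10. Eif3b, a translation initiation factor gene that Prdm10 controls in mouse embryos, had 12.3 and 17.7 TPM, and Flcn, the folliculin gene linked to PRDM10 in humans, had 54.5 and 68.7 TPM in replicates 1 and 2. Eif3b was 1.44-fold and Flcn 1.26-fold higher in replicate 2, where Prdm10 was lower, and a link between these differences was not tested. Prdm10 spans chr9:31280538-31381723 on the plus strand, with 21 exons and a coding length of 3516 bases.

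Prdm15, which keeps mouse embryonic stem cells in their naive state, had 10.1 TPM in replicate 1 and 4.42 TPM in replicate 2. Its values differed by 2.29-fold, the widest of the 5 members read in both libraries, and it was above 1 TPM (limma, adjusted p = 0.0253). Its known targets in those stem cells were at or near 0, with Rspo1 listed at 0 in each library and Spry1 at 0 and 0.09 TPM. Prdm15 spans chr16:97791467-97851850 on the minus strand, with 24 exons and a coding length of 3522 bases.

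Prdm12 and Prdm16 act mainly outside the retina and were at or near 0. Prdm12, a gene of pain-sensing neurons, had a listed 0 and 0.09 TPM in replicates 1 and 2. Prdm16, a gene of brown fat, blood and neural stem cells, was listed at 0 in both libraries. Its cofactor genes were read at higher levels, Ctbp1 at 20.4 and 45.1 TPM and Ctbp2 at 119 and 95.7 TPM in replicates 1 and 2, and both were above 10 TPM. Ctbp2 also yields the ribbon synapse protein RIBEYE, and TPM per gene does not part the transcripts. Ppargc1a, a coactivator of mitochondrial genes that works with Prdm16 in brown fat, had 0.82 and 1.59 TPM and did not pass the test (limma, adjusted p = 0.562). Prdm12 spans chr2:31640037-31655795 on the plus strand, with 5 exons, and Prdm16 spans chr4:154316125-154636873 on the minus strand, with 17 exons.

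**Figure D3:**
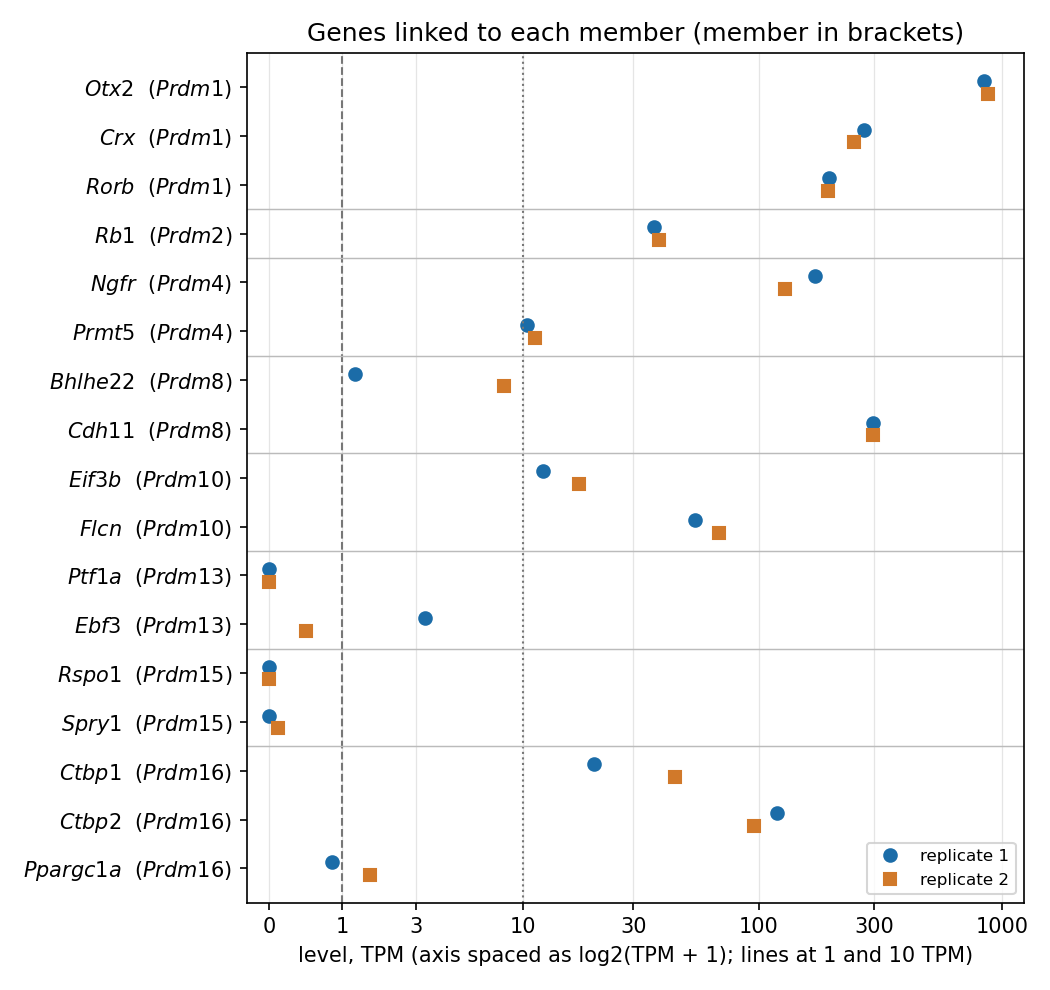
Levels in TPM of 17 genes linked to the members, on an axis spaced as log2(TPM + 1), with circles for replicate 1, squares for replicate 2 and lines at 1 and 10 TPM. The genes linked to Prdm1 lie above 100 TPM while Prdm1 itself is at or near 0, and those linked to Prdm13 and Prdm15 lie under 4 TPM.

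Over all 17 linked genes, of which 15 were tested, 11 were above 1 TPM and 9 above 10 TPM in limma's test. Of all genes tested, 55.5% and 32.4% were. Histone-modifying enzymes and corepressors with which PRDM proteins work were all read at 1 TPM or more in both libraries. Of 10 such genes 9 were above 1 TPM and 8 above 10 TPM in limma's test. The highest was the histone deacetylase gene Hdac2 at 435 ± 14.1 TPM, followed by Ezh2, the Polycomb methyltransferase gene, at 174.5 ± 37.1 TPM and the deacetylase gene Hdac1 at 97.1 ± 9.998 TPM (SD, n = 2). The lowest were Prmt5 and the histone methyltransferase gene Suv39h1, which had 4.25 and 3.98 TPM and did not pass the test against 1 TPM (limma, adjusted p = 0.136).

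In the order by mean TPM, Prdm2, Prdm10 and Prdm4 came first, then Prdm15 and Prdm8, then Prdm1 and Prdm12, with Prdm13 and Prdm16 tied at 0. Neighbours whose values did not overlap over the libraries were Prdm4 and Prdm15, with at least 18.1 TPM against at most 10.1 TPM, and Prdm8 and Prdm1, with at least 3.23 TPM against at most 0.21 TPM. The values of all other neighbours overlapped or were equal. Prdm15 stood above Prdm8 in replicate 1 and just below it in replicate 2. Of the 5 members above 0 in both libraries, Prdm2, Prdm4 and Prdm8 lay within 2-fold between the libraries, 3 of 5, as did 63.8% of the 16037 genes above 0 in both. Prdm2, Prdm10 and Prdm15 were lower in replicate 2, and Prdm4 and Prdm8 higher. With 1 group of 2 libraries these differences have no test.

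**Figure D4:**
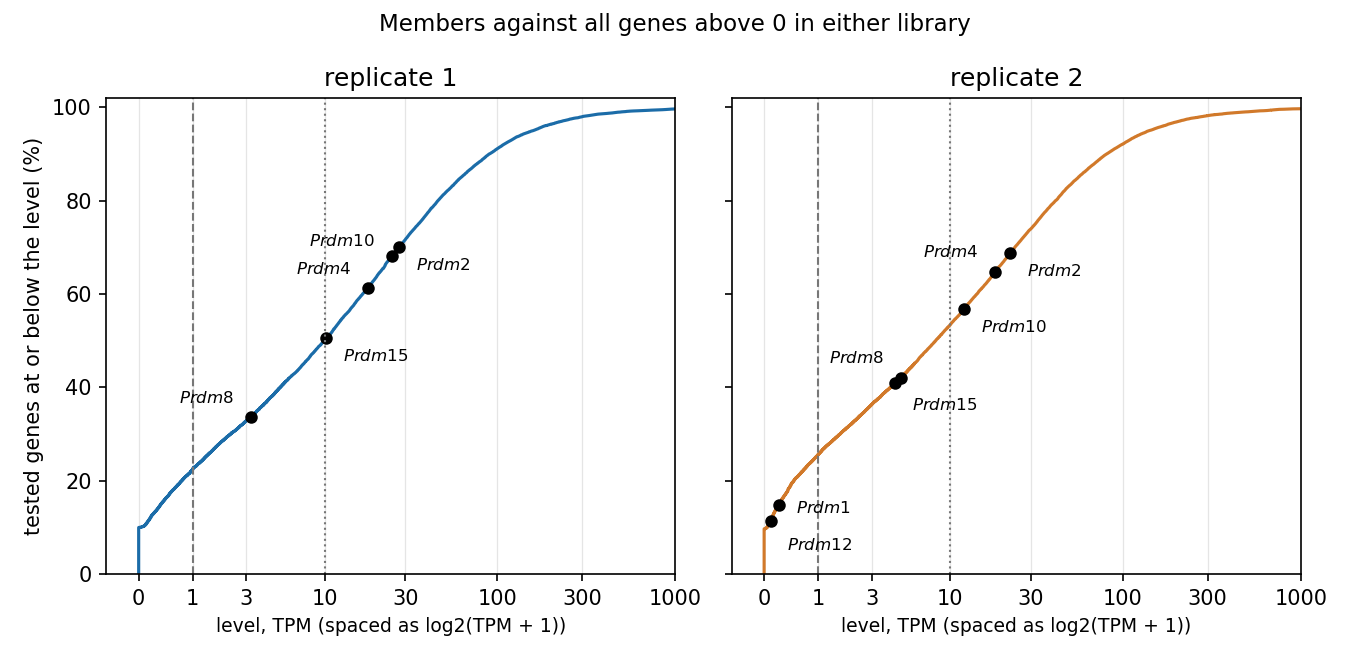
The curve gives, for each TPM level on an axis spaced as log2(TPM + 1), the share in percent of the 19968 tested genes at or below it, in replicate 1 (left) and replicate 2 (right). Points are members above 0 in that library. Prdm2 lies near 70% in both panels, Prdm8 between 33.6% and 42.0%, and Prdm1 and Prdm12 appear in replicate 2 alone, at 14.8% and 11.3%.

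The other PR domain genes set these levels in context. Of 6 such genes, of which 5 were tested, 3 were above 1 TPM in limma's test, near the 55.5% of all genes tested. Prdm11 had 45.6 TPM in replicate 1 and 32.5 TPM in replicate 2, which was 1.65 and 1.42 times the level of Prdm2, the highest member. Prdm9, known for placing meiotic recombination in germ cells, had 32.9 and 12.1 TPM, which was 10.2 and 2.53 times the level of Prdm8. Zfp408, whose human counterpart is a retinal disease gene, had 8.65 and 36.1 TPM. Prdm14, a germ cell gene, had 0.35 and 0.11 TPM, Mecom, a blood stem cell gene, had 0.25 and 0.05 TPM, and Prdm6, a smooth muscle gene, was listed at 0 in both. Prdm11 thus stood above every one of the 9 members in both libraries.

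Among 46 transcription factor genes of the retina, the 3 nearest in level to Prdm8 were Sox9, Hes1 and Nrl, by Euclidean distance of log2(TPM + 1) over 2 libraries. The distances were 0.26, 0.64 and 1.02. Sox9, a gene of Muller glia, had 3.69 and 5.73 TPM, Hes1, a Notch target gene, had 1.83 and 6.04 TPM, and Nrl, the rod fate gene, had 3.43 and 10.7 TPM. Nearest to Prdm1 were Lhx3, Irx6 and Ebf1, each at most 0.11 TPM in either library. Prdm13 shared its 0 in both libraries with Foxn4, Irx5 and Ptf1a. Prdm2 lay nearest to Nfib, Six6 and Pax6, at distances of 0.31, 0.77 and 1.04. Over 2 libraries such nearness says little more than that the mean levels were similar.

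Summed levels of glial markers were higher in replicate 2, and each vessel marker was under 2 TPM in both libraries. Muller glia genes summed to 192 TPM in replicate 1 and 408 TPM in replicate 2, with 6 of 9 above 1 TPM, against 55.5% of all genes tested. Without a variance trend, Vim and Apoe lost this call (limma, adjusted p = 0.110 and 0.0564) and Sox9 gained it (limma, adjusted p = 0.0132). Apoe had 1.29 and 27.0 TPM. The highest Muller glia genes were Glul at 75.8 and 123.9 TPM, Clu at 85.7 and 79.5 TPM and Vim at 0.20 and 119 TPM. The lowest were Aqp4 at 0.68 and 6.77 TPM and Rlbp1 at 2.31 and 3.74 TPM. Astrocyte genes, with S100b, Gfap and Pdgfra, summed to 0.1 TPM in replicate 1 and 10.03 TPM in replicate 2, and microglia genes to 2.21 and 15.0 TPM, mostly from Aif1 at 0 and 12.95 TPM. The microglia gene C1qa, the endothelial genes Cldn5 and Cdh5 and the pericyte genes Pdgfrb and Kcnj8 were listed at 0 in both libraries. The 9 members together summed to 84.1 TPM in replicate 1 and 63.0 TPM in replicate 2. The part of such cells in the members' levels was not tested.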

How the data were processed

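Per the labels' protocols, cells of dissociated retina were FACS sorted and total RNA was amplified and made into libraries with a NuGEN Ovation kit (system V2). The authors deposited TPM per gene symbol for each library. Per the submitters' processing notes, RSEM 1.2.28, TopHat2 2.0.10 and mm10 were used, in roles not stated. No source used here gives the annotation, filters or use of strand, so overlapping antisense genes may not be told apart. The heading of replicate 1 misspells Htr3a, so columns were matched by replicate number.

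Values were put on log2(TPM + 1), pseudocount 1. Levels above 1 and 10 TPM were tested one-sided in limma 3.58.1 (R 4.3.3), with only an intercept and with trended variance. P-values were Benjamini-Hochberg adjusted over 19968 genes above 0 in either library, with a threshold of 0.05. The prior was infinite, so adjusted p-values rest on the trend. TPM keeps no depth, and the number of libraries limits precision. Python 3.11.15 with pandas 2.3.3 and matplotlib 3.10.9 was used. Alternatives were another pseudocount, no trend, a filter on mean TPM, rescaling and leaving out a library. Members and lists were chosen with earlier results of these data known. Named are all members, other PR domain genes and linked genes. Of the other lists, most named genes are among the 3 highest, the 2 lowest or those at 0 in both. Not all such genes are named. Some genes of these lists are not reported here. Coordinates are from GENCODE M21, sequences from RefSeq (GRCm38.p6).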

Additional observations from a re-analysis of the deposited data

How the results depend on the processing

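The count of members above 1 TPM was 4, and 4 to 5 under every alternative tried, a range of 5 to 5 when either library was left out. Above 10 TPM the count of members was 1, 2 after rescaling without the mitochondrial genome, and 3 for values at or over 10 TPM in both libraries with no test. Leaving out a library gave 3 to 4 with no test, 3 without replicate 1 and 4 without replicate 2, since a single library has no spread and Prdm4 and Prdm10, and Prdm15 in replicate 1, then count by value. Linked genes above 1 TPM numbered 11 to 13. Of 35 ordered pairs of members, 33 kept their order without replicate 1, where Prdm10 fell below Prdm4 and Prdm15 below Prdm8. Without replicate 2, 30 kept their order, and the rest were ties among members listed at 0 in replicate 1. Rescaling without the mitochondrial genome put Prdm2 at a mean of 31.8 TPM, Prdm4 at 23.3 TPM and Prdm8 at 5.14 TPM, by its construction, since it raises every other TPM. No paired analysis was possible because the series has 1 group. Depth is unknown, so nothing can be said of how deep a gene at 0 was looked for.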

Other observations

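Several genes overlap a PR domain gene on the opposite strand, and no source used here says whether counting used strand. Of those overlapping a member, the ones with a value in the table were listed at 0 in both libraries: Gm22039 in Prdm2, Gm13425 at Prdm12, and B230104I21Rik, Gm13133 and Gm13134 in Prdm16. The antisense gene 4631405J19Rik, which overlaps Prdm11, had 32.7 TPM in replicate 1 and 21.2 TPM in replicate 2, beside 45.6 and 32.5 TPM for Prdm11. No gene with a value in the table overlapped Prdm9, Prdm1, Prdm4, Prdm8, Prdm10, Prdm13 or Prdm15. Prdm16 has the longest span of the members, 320749 bases, and Prdm13 the shortest, 8484 bases, and both were listed at 0.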
